A study of Mus musculus with 8 samples.

Results

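The transcription factors of the secretory lineage of the gut were followed in sorted mouse Paneth cells, the antimicrobial cells that lie at the bottom of the crypts. The group held 10 genes, Atoh1, Gfi1, Spdef, Sox9, Bhlha15, Foxa1, Foxa2, Foxa3, Cdx2 and Creb3l1, each matched by its Ensembl gene ID through GENCODE, out of 55414 IDs in the table. The series compared 2 groups of 4 libraries each, made by RNA-seq from Paneth cells collected by FACS from the small intestine. The TG libraries (genotype DT TG) came from transgenic mice that make diphtheria toxin, a bacterial toxin that stops protein synthesis and kills the cell, in their Paneth cells. The WT libraries came from wild type mice without the toxin. The sources used here give neither the promoter that drives the toxin nor the age of the mice or the time of exposure. The paper lists this series as profiling of cells purified after depletion of (mature) Paneth cells. The cells measured in TG were those that could still be sorted from the transgenic mice. The study describes its Paneth cell samples as coming from individual C57BL/6J mice, while the labels of these libraries do not name the animals.

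Secretory cells of the intestine arise from crypt progenitors that escape Notch signalling. In these cells Atoh1, a basic helix-loop-helix factor, is switched on and starts the secretory programme, and Gfi1 and Spdef act below it in the maturation of Paneth and goblet cells. Sox9, a target of Wnt signalling, is needed for Paneth cells to form, Bhlha15 (also called Mist1) and Creb3l1 belong to the programmes that build the secretory machinery, and the Foxa factors and Cdx2 open and maintain gut-specific chromatin.

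Total counts ranged from 13107397 to 16218434 per library. Paneth cell markers were abundant in both groups: 9 of 9 were detected in every library, and their summed level was 348115 to 396012 CPM (counts per 1000000 of the total count of a library) in WT and 365629 to 405271 CPM in TG. None of 10 immune and stromal markers passed the filter on low counts, and their summed level was at most 2.47 CPM. Of 11929 genes tested with edgeR, 17.9% were called at an adjusted p below 0.05 (8.26% higher and 9.65% lower in TG). Without scaling factors beyond the total counts the split was 787 higher and 263 lower, against 985 and 1151 with TMM factors, and it was 839 and 1652 with an offset for GC content and exon length. Mitochondrial genes held 0.83 ± 0.22% of the counts in WT and 1.31 ± 0.17% in TG (SD over 4 libraries), with no overlap (permutation test, exact and two-sided, p = 0.0286, the smallest that 4 against 4 allows). Its part in the results below was not tested.

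All 10 factors were detected in every library, with 270 to 6958 counts, and all passed the filter on low counts. Counting error alone (Poisson) was thus at most 6.09% of a count, for Foxa2, and at least 1.20%, for Bhlha15. Of the 10 factors, 1 was called in TG against WT, Foxa1, which was lower, and 0 were called higher (1 at an unadjusted p below 0.05, Foxa2, and 0 with DESeq2 or limma voom). These counts stand beside the 9.65% and 8.26% of all genes called lower and higher. The log2 fold change was negative for 8 factors and positive for Foxa2 and Cdx2, with a median of −0.17 over the 10 factors and of 0.01 over all genes tested. The CPM of the groups did not fully separate for any factor, compared with 15.6% of all genes tested. After each library was scaled by its TMM factor, a choice of scale made after the values were seen, 1 factor separated, again Foxa1, beside 22.0% of all genes. In bulk samples, fewer cells of a type and less RNA per cell cannot be told apart.

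**Figure D1:**
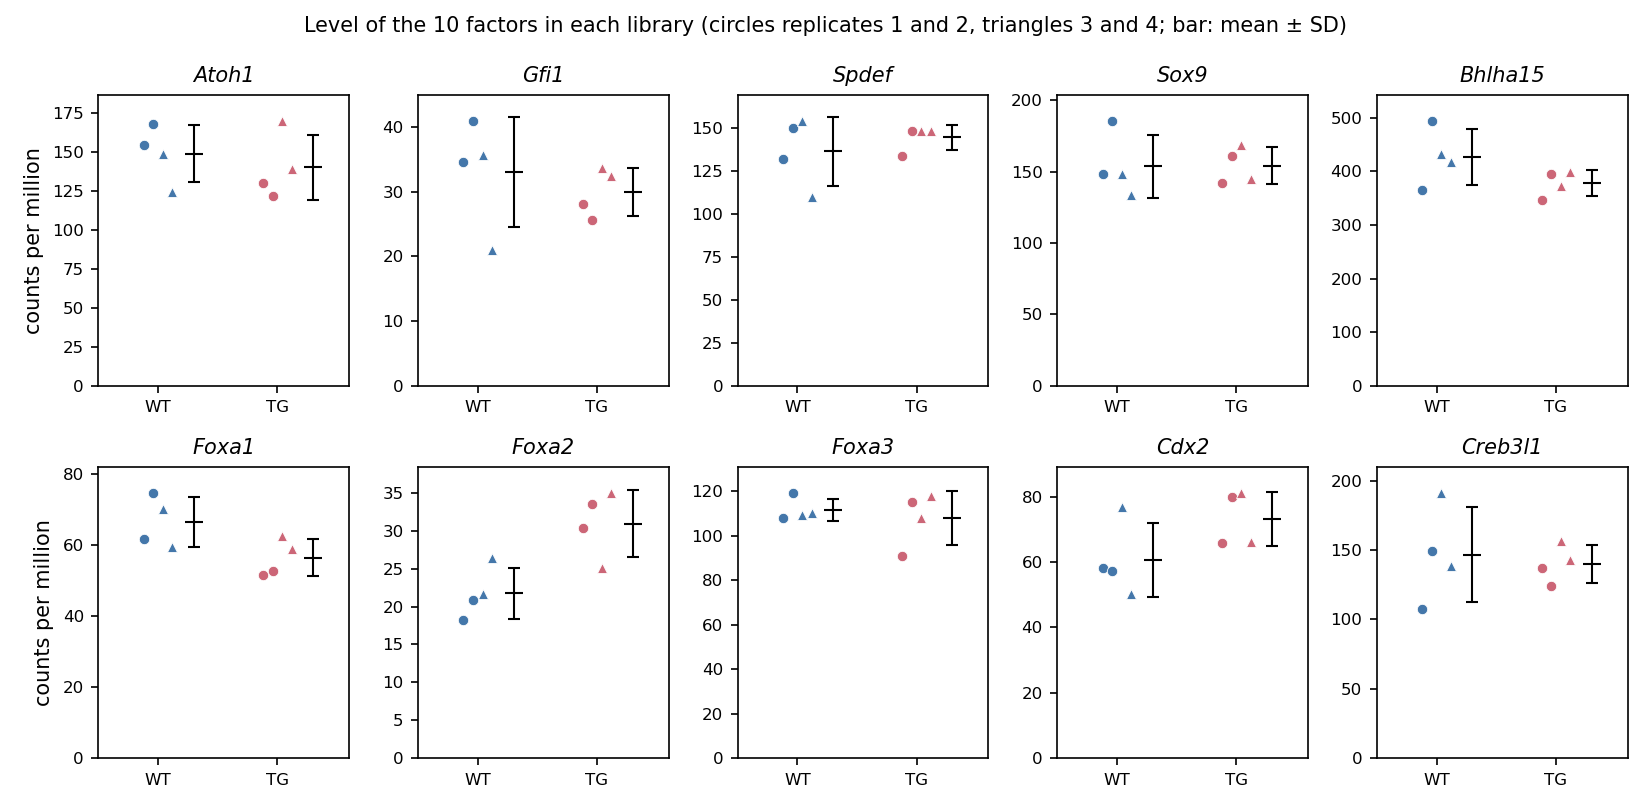
Level of the 10 factors in CPM (vertical axes, each from 0) in the 4 WT (blue) and 4 TG (red) libraries, with circles for replicates 1 and 2, triangles for replicates 3 and 4, and black bars for the mean ± SD. The values of the groups overlap in all 10 panels, and Foxa2 has its 3 highest values in TG.

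Sequence upstream of the start is shown first for the 3 factors with the smallest unadjusted p, so that it can be read beside their levels. RefSeq windows of the 250 bases before the start on the GRCm38.p6 build were matched by symbol for 8 of the 10 factors, in 11 windows because Foxa2 and Gfi1 have several starts. Sox9 and Creb3l1 are named only. The forkhead core TGTTTAC, the site that Foxa proteins bind, was searched on both strands and was found in 2 of the 11 windows, those of Foxa1 and Cdx2, against 3.17% of all 32851 windows of this length. The general E-box CANNTG, which includes the CAGNTG form favoured by Atoh1, was found in 7 of the 11 windows, against 66.2% of all windows. The CAGNTG form stood in a window of Gfi1 and in those of Bhlha15, Cdx2, Foxa3 and Foxa1, beside 44.8% of all windows. The match in Foxa1 began 141 bases before the RefSeq start, which lies downstream of the end of the sequence printed below. The Bhlha15 window held 3 E-boxes, all of the CAGNTG form. A match describes the letters of these windows and is not evidence of binding. Capitals mark the forkhead core in Foxa1 and the E-boxes in Bhlha15, and the Foxa2 sequence holds no forkhead core and so no capitals. The sequences are written 5′ to 3′ on the strand of the gene and stop where the main GENCODE transcript begins.
Foxa1, chr12:57546159-57546361, minus strand: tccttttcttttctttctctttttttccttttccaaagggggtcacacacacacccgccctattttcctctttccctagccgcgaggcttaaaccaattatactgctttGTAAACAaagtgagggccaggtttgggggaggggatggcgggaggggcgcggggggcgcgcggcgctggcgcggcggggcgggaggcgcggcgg
Foxa2, chr2:148047086-148047219, minus strand: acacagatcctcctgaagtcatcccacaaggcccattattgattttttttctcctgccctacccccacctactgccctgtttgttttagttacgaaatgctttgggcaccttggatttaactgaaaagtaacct
Bhlha15, chr5:144190036-144190267, plus strand: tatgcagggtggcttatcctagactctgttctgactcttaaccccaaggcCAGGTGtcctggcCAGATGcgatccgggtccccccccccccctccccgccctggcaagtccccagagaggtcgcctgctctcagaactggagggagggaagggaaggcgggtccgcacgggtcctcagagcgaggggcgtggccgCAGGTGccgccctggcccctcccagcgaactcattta

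Foxa1, a forkhead factor that opens closed chromatin, was the factor called. Its gene lies on the minus strand of chr12:57587414-57593702 (GRCm39). Its level was 51.4, 52.6, 62.3 and 58.8 CPM in TG replicates 1 to 4 and 61.6, 74.4, 70.1 and 59.4 CPM in WT replicates 1 to 4. TG replicate 3 lay above WT replicates 1 and 4, and the other TG libraries were below all WT libraries. On the TMM scale it was 49.7, 48.5, 57.0 and 61.1 CPM in TG and 72.9, 73.0, 63.7 and 66.3 CPM in WT, and there every TG library was below every WT library. The fitted difference was 1.28-fold lower in TG, with a log2 fold change of −0.35 ± 0.09 (SE, 95% confidence interval −0.55 to −0.15, n = 4 each, edgeR adjusted p = 0.0204). The call was lost with total counts only (log2 fold change −0.24, adjusted p = 0.212 by edgeR), in the libraries with Y-linked counts alone (−0.13, adjusted p = 0.558 by edgeR), and without TG replicate 1 (−0.31, 0.0864) or TG replicate 2 (−0.30, 0.0787). Foxa1 was negative under all 21 alternatives tried, in the range of −0.57 to −0.13, and called under 17 of them.

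Foxa2, a close relative of Foxa1 that lies on the minus strand of chr2:147884797-147889005, differed in the other direction. Its level was 30.3, 33.6, 25.03 and 34.9 CPM in TG and 18.2, 20.8, 21.6 and 26.4 CPM in WT. Only TG replicate 3 and WT replicate 4 crossed, the first being below the second. The log2 fold change was 0.39 ± 0.15 (interval 0.06 to 0.72), which is 1.31-fold, and it did not pass the threshold (unadjusted p = 0.0237, edgeR adjusted p = 0.0938). It was positive under all 21 alternatives, from 0.27 to 0.53, and called under 7. With all libraries these were total counts only (0.51, edgeR adjusted p = 0.0424) and no filter (0.38, 0.0060). A block for the replicate number also gave a call (0.39, 0.0173), as did that block with the GC and length offset (0.34, 0.0276). The others were the fits without TG replicate 3 (0.50, 0.0329), without WT replicate 4 (0.53, 0.0245) and in the libraries without Y-linked counts (0.52, 0.0455).

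Foxa3, the most abundant of the 3 Foxa genes per kilobase and found on the minus strand of chr7:18747209-18757471, had 91.0 to 118.1 CPM in TG and 107.9 to 119.1 CPM in WT. Its log2 fold change of −0.17 ± 0.11 (interval −0.40 to 0.07) was not called (edgeR adjusted p = 0.301). The largest TG deviation was in TG replicate 1, at 91.0 CPM.

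**Figure D2:**
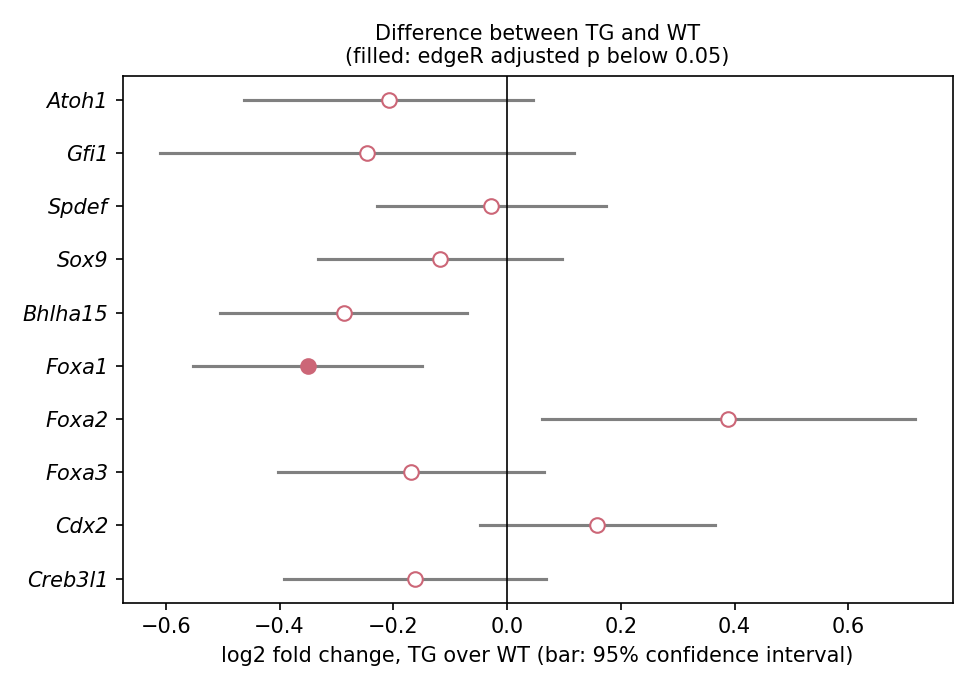
Log2 fold change of each factor, TG over WT, from the edgeR fit (points), with its 95% confidence interval (bars) and filled points for an adjusted p below 0.05. The interval lies below 0 for Foxa1 and Bhlha15 and above 0 for Foxa2, and Foxa1 alone is filled.

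The Foxa genes were also set against each other within a library, where the scaling between libraries drops out. Counts were divided by the exon length of each gene and expressed as a share of the family. Foxa1 took 24.4 ± 1.66% of the family in WT and 21.3 ± 1.94% in TG (SD, n = 4 each). Foxa2 took 7.94 ± 1.29% in WT and 11.6 ± 1.57% in TG, and Foxa3 took 67.7 ± 1.15% and 67.1 ± 1.67%. The shares of Foxa1 and Foxa2 differed by −3.07 and 3.67 percentage points (exact two-sided permutation test over 70 assignments, p = 0.0571 for each, 0.0857 after adjustment over the 3 shares), and that of Foxa3 by −0.60 (exact p = 0.571). Neither shift passed the threshold, and the smallest p that this design allows is 0.0286. Without TG replicate 3 the share of Foxa2 differed by 4.42 percentage points (exact unadjusted p = 0.0286). Leaving out any other single library gave exact unadjusted p-values of 0.0571 to 0.0857 for this share. The ratio of Foxa1 to Foxa2 per kilobase was 1.71, 1.58, 2.51 and 1.70 in TG and 3.41, 3.61, 3.27 and 2.27 in WT, so that TG replicate 3 lay above WT replicate 4 and the other libraries separated.

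**Figure D3:**
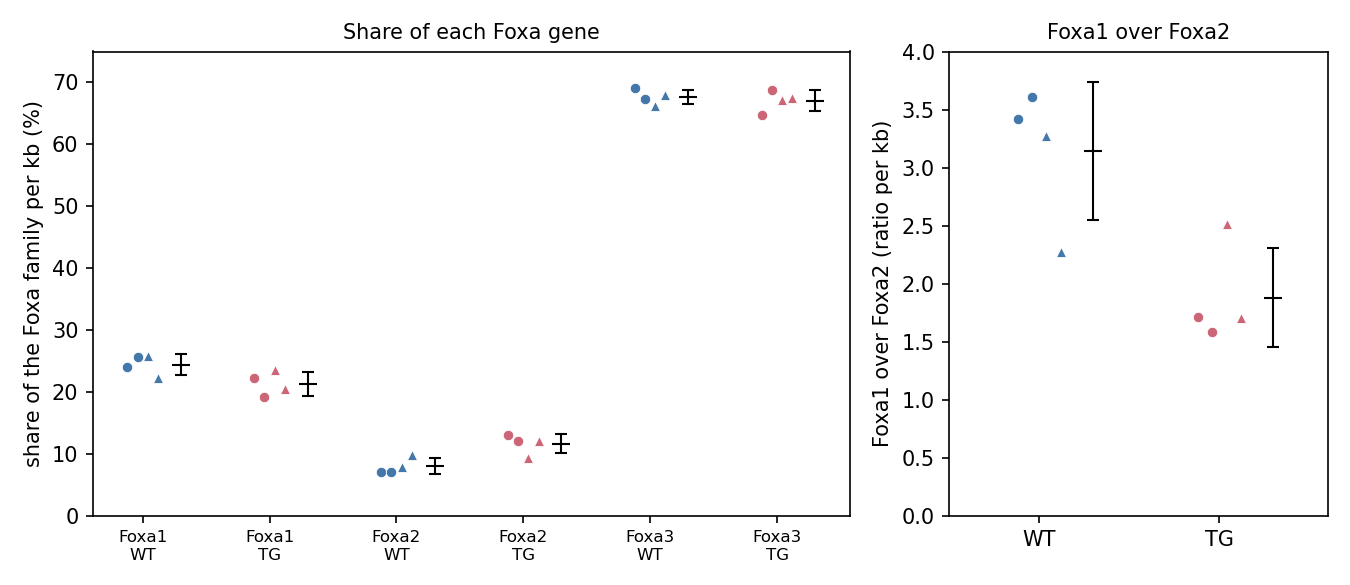
Left, share of each Foxa gene in the summed Foxa counts per kilobase (percent) by group; right, ratio of Foxa1 to Foxa2 per kilobase; circles are replicates 1 and 2, triangles replicates 3 and 4, and black bars the mean ± SD. Foxa3 holds 67.7% of the family in WT and 67.1% in TG, while the ratio lies at 1.58 to 2.51 in TG and 2.27 to 3.61 in WT.

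Bhlha15, the factor of mature secretory cells with large granules, lies on the plus strand of chr5:144127086-144131259 and was the most abundant of the 10 factors. Its level was 346.6, 395.8, 372.5 and 398.0 CPM in TG and 365.7, 493.0, 431.5 and 417.2 CPM in WT. Of the WT libraries, replicate 1 alone lay within the TG values. The log2 fold change was −0.29 ± 0.10 (interval −0.50 to −0.07), with an unadjusted p of 0.0129 and an edgeR adjusted p of 0.0630, so that it was not called. It was negative under all 21 alternatives and called under 8. Among these were DESeq2 (adjusted p = 0.0254), limma voom (adjusted p = 0.0272) and a block for the replicate number (edgeR adjusted p = 0.0444). Of 7 genes described as its direct targets, 6 were tested and 0 were called by edgeR, DESeq2 or limma voom (0 at an unadjusted edgeR p below 0.05), with a median log2 fold change of −0.10.

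Atoh1, at the top of the lineage, lies on the plus strand of chr6:64706109-64708229. Its level was 130.2, 122.0, 169.4 and 138.9 CPM in TG and 154.0, 167.9, 148.8 and 124.4 CPM in WT, and the highest value of all was in TG. The log2 fold change of −0.21 ± 0.12 (interval −0.46 to 0.05) was not called (edgeR adjusted p = 0.238). Gfi1, a zinc finger repressor below Atoh1 on the minus strand of chr5:107864523-107873902, had 28.1, 25.6, 33.6 and 32.5 CPM in TG and 34.5, 40.8, 35.6 and 20.9 CPM in WT. Its lowest value was in WT replicate 4, and its log2 fold change of −0.25 ± 0.17 (interval −0.61 to 0.12) had an edgeR adjusted p of 0.329. Exons of Gfi1 overlap the antisense RNA A430072P03Rik by 327 bases, but that gene held at most 5 counts in a library.

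Spdef, an ETS factor of goblet and Paneth cell maturation on the minus strand of chr17:27933326-27947929, had 134.0 CPM in TG replicate 1 and 148.2, 148.5 and 148.2 CPM in TG replicates 2 to 4. The WT values of 132.1, 150.3, 153.9 and 110.1 CPM spanned all of them. The log2 fold change was −0.03 ± 0.09 (interval −0.23 to 0.17, edgeR adjusted p = 0.867), the smallest in size of the 10 factors. Its sign turned to positive with total counts only. Sox9, an HMG box factor on the plus strand of chr11:112673009-112678586, had 142.3 to 168.5 CPM in TG and 133.3 to 185.1 CPM in WT. Its log2 fold change was −0.12 ± 0.10 (interval −0.33 to 0.10, edgeR adjusted p = 0.438), and its sign also turned with total counts only. The antisense RNA BC006965 that overlaps it held at most 8 counts in a library.

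Cdx2, the homeobox factor of intestinal identity on the minus strand of chr5:147237615-147244091, had 66.0, 80.0, 81.1 and 66.2 CPM in TG and 58.3, 57.2, 77.1 and 50.3 CPM in WT. All WT libraries but replicate 3 were below all TG libraries. The log2 fold change of 0.16 ± 0.10 (interval −0.05 to 0.37) was not called (edgeR adjusted p = 0.268). Creb3l1, a membrane-bound factor of the OASIS family that is cut to enter the nucleus, lies on the minus strand of chr2:91812673-91854917. It had 123.8 to 156.5 CPM in TG and 107.6 to 190.8 CPM in WT, the widest WT range relative to its mean after Gfi1. Its log2 fold change was −0.16 ± 0.11 (interval −0.39 to 0.07, edgeR adjusted p = 0.314). The intervals of the 7 factors other than Foxa1, Foxa2 and Bhlha15 include 0, and as fold changes they reach from 0.655, for Gfi1, to 1.29, for Cdx2.

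The levels of the 10 factors were put in order per kilobase of exon. In WT, Bhlha15 stood first with 121.5 ± 14.9 CPM per kb (SD, n = 4), 1.73 times Atoh1 with 70.2 ± 8.55. Then came Spdef with 59.3 ± 8.72, Foxa3 with 54.6 ± 2.48, Creb3l1 with 54.1 ± 12.7, Sox9 with 36.8 ± 5.28 and Cdx2 with 26.7 ± 5.05 CPM per kb. Foxa1 with 19.7 ± 2.10, Gfi1 with 10.3 ± 2.66 and Foxa2 with 6.40 ± 1.00 closed the order. The ranges over the WT libraries of Bhlha15, Cdx2 and Foxa1 lay wholly above those of their next neighbours, and the ranges of the other neighbours overlapped. The order in TG was the same, from Bhlha15 with 107.7 ± 6.84 to Gfi1 with 9.39 ± 1.18 and Foxa2 with 9.12 ± 1.30 CPM per kb. With the length of the main transcript in place of all exons, an alternative chosen after seeing the data, Spdef and Atoh1 changed places, as did Creb3l1 and Foxa3. The summed level of the 10 factors was 1306 ± 138 CPM in WT and 1256 ± 71.6 CPM in TG (exact two-sided permutation test, p = 0.543). On the TMM scale it was 1357 ± 77.1 and 1206 ± 92.5 CPM (exact p = 0.0857).

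**Figure D4:**
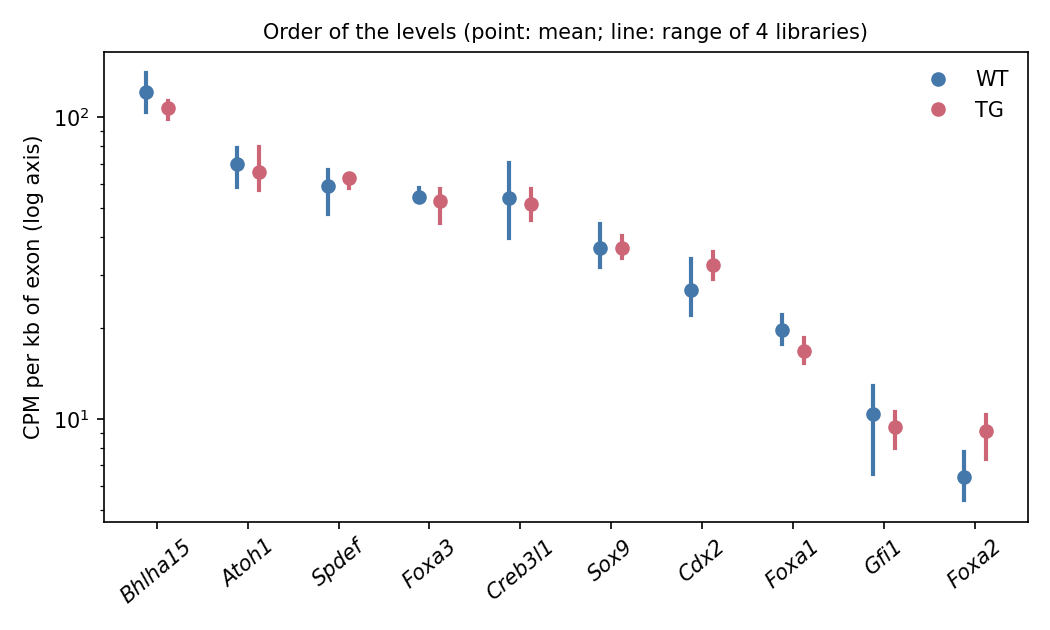
Level of each factor per kilobase of exon (CPM per kb, log axis) in WT (blue) and TG (red), with points for the mean and lines for the range of 4 libraries. The order from Bhlha15 (121.5 CPM per kb in WT) to Foxa2 (6.40 CPM per kb) is the same in both groups.

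Counts of 4 Y-linked genes were absent (0) from replicates 1 and 2 and reached 897 to 1564 in replicates 3 and 4, in TG and WT alike. The difference between TG and WT was therefore also fitted within each kind of library. Without Y-linked counts the log2 fold change was −0.54 for Atoh1, −0.67 for Gfi1, −0.57 for Foxa1 and −0.32 for Sox9. With Y-linked counts it was 0.13 for Atoh1, 0.21 for Gfi1, −0.13 for Foxa1 and 0.11 for Sox9. The tests of this difference gave an unadjusted p of 0.00155 for Atoh1 and 0.00141 for Gfi1, but edgeR adjusted p-values of 0.430 and 0.409, and for Foxa1 and Sox9 of 0.765 and 0.795. It was thus not shown that any of the 10 factors responded differently, and 3 of all 11929 genes (0.0251%) passed that test. Within the 2 TG and 2 WT libraries without Y-linked counts, Atoh1, Gfi1 and Foxa1 were called lower and Foxa2 higher by edgeR (adjusted p = 0.0296, 0.0136, 0.0179 and 0.0455), and within those with Y-linked counts edgeR called 0 factors (0 at an unadjusted p below 0.05). Over all genes tested, 4.15% were called higher and 5.29% lower without Y-linked counts, and 1.80% in either direction with them, so that 0 of 10 is near the share of all genes.

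**Figure D5:**
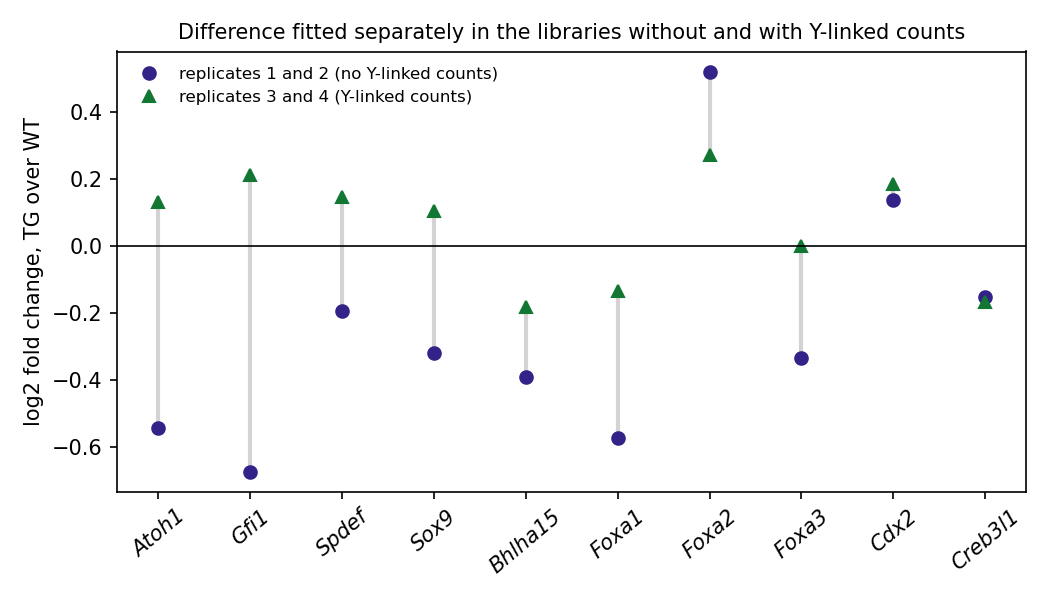
Log2 fold change of each factor, TG over WT, fitted in replicates 1 and 2 (circles, no Y-linked counts) and in replicates 3 and 4 (triangles), with a grey line joining both. The values are furthest apart for Gfi1 (−0.67 and 0.21) and Atoh1 (−0.54 and 0.13), and nearly the same for Creb3l1.

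The pathways around these factors were described by lists chosen with earlier results of these data known, and their edgeR counts stand beside 8.26% of all genes called higher and 9.65% called lower. Notch signalling, which holds Atoh1 down, had 13 of 18 listed genes tested, with 0 called higher and 1 lower, and a median log2 fold change of 0.21. The called gene was Adam10, the protease that cuts Notch receptors, with 64.7 ± 9.53 CPM in WT and 57.2 ± 7.66 CPM in TG (log2 fold change −0.29 ± 0.08, edgeR adjusted p = 0.0276). Dll1, the Notch ligand that secretory progenitors carry, was not called (0.39 ± 0.14, edgeR adjusted p = 0.0726). Among 7 E proteins and Id inhibitors, the partners and the blockers of Atoh1 and Bhlha15, 2 were called higher and 0 lower by edgeR, beside the 8.26% of all genes called higher, and 1 was called higher with limma voom or with total counts only. Id1 had 5.56 ± 0.90 CPM in WT and 9.08 ± 1.79 CPM in TG (0.59 ± 0.16, edgeR adjusted p = 0.0226). Tcf4 had 14.3 ± 2.12 CPM in WT and 19.3 ± 1.65 CPM in TG (0.32 ± 0.10, edgeR adjusted p = 0.0461).

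Of 12 other factors of intestinal identity, partners of Cdx2, 2 were called higher and 1 lower, beside the 8.26% and 9.65% of all genes. Hnf4g was among those higher in TG (log2 fold change 0.43 ± 0.12, edgeR adjusted p = 0.0269), and the epithelial ETS factor Elf3 was lower (−0.30 ± 0.10, edgeR adjusted p = 0.0464). Wnt signalling, the input to Sox9, had 13 genes tested, with 4 called higher and 1 lower, against 8.26% and 9.65% of all genes. Axin2, a feedback target of Wnt signalling, had 64.1 ± 19.6 CPM in WT and 98.9 ± 15.3 CPM in TG (0.52 ± 0.12, edgeR adjusted p = 0.0107). Fzd5, Rnf43 and Myc were the other genes called higher, and Tcf7l2 was lower. Of 8 genes of the OASIS family and its partners, Creb3l3 alone was called by edgeR (2 genes were called higher by DESeq2, and 1 higher and 1 lower by limma voom), with 3.31 ± 1.34 CPM in TG and 0.19 ± 0.17 CPM in WT, while Xbp1 was not (0.00 ± 0.12, edgeR adjusted p = 0.987). Creb3l3 had 0 to 6 counts per library in WT and 29 to 66 in TG. It thus passed the filter on low counts only through TG and could hardly be called lower. Creb3l3 is known from hepatocytes and enterocytes. With total counts only, 0 genes of the Notch, Wnt and identity lists were called lower by edgeR. Of 10 enteroendocrine and tuft cell factors, 2 passed the filter on low counts and Nkx2-2 was called higher (0.72 ± 0.18, edgeR adjusted p = 0.0136).

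Markers of the cell types that these factors specify were read beside them, with the same 8.26% and 9.65% of all genes called higher and lower by edgeR. Of 9 Paneth cell markers, 1 was called higher (Kit, log2 fold change 0.48 ± 0.09) and 3 lower (Mptx2 −1.35 ± 0.20, Mmp7 −0.59 ± 0.15 and Ang4 −0.57 ± 0.18), while Lyz1 (0.07 ± 0.21) and Defa24 (−0.19 ± 0.20) were not called in edgeR. Of 10 goblet cell markers, 9 were tested and 0 were called by edgeR, DESeq2 or limma voom (2 at an unadjusted edgeR p below 0.05, Agr2 and Klk1, named after their values were seen; Muc2 −0.15 ± 0.16), with a summed level of 10936 to 13307 CPM in WT and 9866 to 12049 CPM in TG. Of 11 enterocyte markers, 4 were called higher and 0 lower by edgeR (7 and 0 by DESeq2), with a summed level of 683 to 780 CPM in WT and 844 to 1002 CPM in TG. Among them were Alpi, at 0.76 ± 0.58 CPM in WT and 4.91 ± 2.09 CPM in TG, and Apob, at 15.9 ± 4.65 and 36.4 ± 5.44 CPM. Alpi had 4 to 24 counts per library in WT and 37 to 113 in TG. It passed the filter on low counts through its TG libraries, and markers this close to 0 in WT could hardly be called lower. Of 7 stem and progenitor markers, 0 were called higher and Smoc2 alone was called lower by edgeR (−0.35 ± 0.09), and of 9 enteroendocrine and tuft markers 7 were tested and 0 were called by edgeR, DESeq2 or limma voom (0 at an unadjusted edgeR p below 0.05). Vil1 and Anpep, neither called by edgeR, made up most of the summed level of the enterocyte markers. Vil1 had 378 ± 39.4 CPM in WT and 361 ± 18.0 CPM in TG, and Anpep 300 ± 19.7 and 374 ± 23.9 CPM. None of the enterocyte markers was at 0 in TG, and 2 were at 0 in WT replicate 1. The part of these markers in the values of Foxa1, Foxa2 and the other factors was not tested.

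The genes most alike Atoh1, Spdef and Bhlha15 were sought by Pearson's r of log2 CPM after subtraction of the group means, over the 8 libraries and 8045 genes. For Atoh1 these were Ric8b (r = 0.98), Wbp1 (r = 0.97) and Ufc1 (r = 0.96). For Spdef they were Csnk1d, Arhgef37 and Elovl6 (each r = 0.97), and for Bhlha15 Cobl (r = 0.97), Chac2 (r = 0.97) and Eif3j1 (r = 0.95). These are the highest values among many genes over few libraries, which share depth and scaling, and they are given as a description.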

How the data were processed

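RNA of Paneth cells sorted from mouse small intestine was sequenced in 4 TG and 4 WT libraries, prepared with a stranded mRNA kit. The authors deposited 1 table of raw counts per Ensembl gene and library. Per the labels, STAR 2.7.0a, FastQC 0.12.0, DESeq2 and the mm39 build were used. The sources used here do not name the counting tool, its annotation or its use of strand.

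Symbols, positions and exon lengths came from GENCODE M39 on GRCm39, which matched 54749 IDs. The main test was edgeR 4.0.16 (R 4.3.3), a quasi-likelihood fit with the robust option, on the raw counts of all 8 libraries. Libraries were scaled by TMM, low counts were filtered by edgeR's default rule, which left 11929 genes, and p-values were adjusted over those genes by Benjamini-Hochberg at 0.05. Shares were compared with exact permutation tests. Alternatives used DESeq2 1.42.0, limma 3.58.1, other scalings, filters and covariates, and each library left out in turn. Levels are CPM of total counts. The TMM-scaled levels and the main transcript length were added after seeing the data. The fits were tested on simulated data. Replicates differed beyond sampling noise (chi-square per degree of freedom at least 5.20).

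The 10 factors and the other lists were chosen with earlier results of these data known. Named were all 10 factors, up to 4 called genes with the smallest p per other list, Lyz1, Defa24, Muc2 and Alpi, and the 3 genes most alike Atoh1, Spdef and Bhlha15. Dll1, Xbp1, Tcf7l2, Vil1 and Anpep were named after their values were seen. Values of 1 gene that this rule names are not reported here.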

Additional observations from a re-analysis of the deposited data

Results flagged for a closer look

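One library stood apart from its group among the 20 combinations of factor and group that were examined. The level of Spdef in TG replicate 1 was 134.0 CPM, against 148.2 to 148.5 CPM in the other TG libraries, and the gap was 0.974 of the whole range of the group. About 1 in 20 groups is picked out by chance. On the TMM scale, a choice made after seeing the data, 0 of 20 combinations stood apart, and the gap of this library was 0.251 of the range.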

How the results depend on the processing

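The count of factors called was 0 higher and 1 lower. It was 0 higher and 2 lower with DESeq2, limma voom or the GC and length offset, 1 higher and 0 lower with total counts only, and 1 higher and 2 lower with no filter or with the GC and length offset and replicate block. It was 1 higher and 3 lower in the libraries without Y-linked counts (500 and 638 over all genes) and 0 and 0 in those with them (113 and 103 over all genes). Leaving out 1 library gave 0 to 1 called higher and 0 to 2 called lower. The fit with a replicate block gave 1 higher (Foxa2, log2 fold change 0.39) and 2 lower (Bhlha15 −0.29 and Foxa1 −0.35), and 1039 higher and 1164 lower over all genes. Same-numbered libraries correlated by 0.08, 0.07, 0.29 and 0.23, and 5 of 8 correlated best with their own number. The main fit left the libraries unpaired, and these values do not exclude that the numbers pair them. The sign turned with total counts only for Spdef (0.083) and Sox9 (0.0032), and in the libraries with Y-linked counts for Atoh1 (0.13), Gfi1 (0.21), Spdef (0.15), Sox9 (0.11) and the share of Foxa3 (0.20 percentage points). Leaving out 1 library gave −0.092 to 0.020 for Spdef and −1.18 to 0.16 percentage points for the share of Foxa3, positive without TG replicate 1. It also moved 5 uncalled factors by over 1.5 times with no change of sign or call: Atoh1 (−0.28 without TG replicate 3 to −0.12 without WT replicate 1), Gfi1 (−0.39 without WT replicate 4 to −0.15 without WT replicate 1), Sox9 (−0.19 without WT replicate 3 to −0.054 without WT replicate 2), Foxa3 (−0.26 without TG replicate 4 to −0.090 without TG replicate 1) and Creb3l1 (−0.24 without WT replicate 1 to −0.089 without WT replicate 3). The cause of these changes was not tested. With total counts only the median over all genes tested was 0.12, against 0.01. Foxa3, Cdx2 and Creb3l1 kept their sign and stayed uncalled under all 21 alternatives. Counting error was highest for Foxa2 and Gfi1, at most 6.09% and 5.64% of a count, below the spread between WT libraries (coefficient of variation 15.6% and 25.8%).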
